A study of Canis lupus familiaris with 17 samples.

Results

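The 6 genes described here, Ccnb2, Plk1, Cdc20, Pttg1, Cdc14a and Wee1, control how cells enter and leave mitosis. Each was followed by 1 transcript, the one that carries its name in the gene list the study published for scribKD against control cells, and the 6 are among 21571 transcripts measured. RNA was sequenced from MDCK-II cells, an established epithelial line from dog kidney, carrying a tetracycline-inducible short hairpin RNA against the polarity gene scribble. All populations carried the hairpin. Control cells (6 libraries) were scribKD cells without tetracycline, scribKD cells (6 libraries) received 10 μg/ml tetracycline, and scribRES cells (4 libraries) also received 10 μg/ml tetracycline. The scribRES population is an isolate obtained from the scribKD line after long culture in tetracycline, and it was expanded without tetracycline before use. In each case 1300000 cells were plated and RNA was collected after 67 h. Control cells received no tetracycline, so the drug and the hairpin it switches on cannot be told apart in comparisons with control. Experiments 1, 2 and 3 each gave 2 control and 2 scribKD libraries, numbered as replicates 1 and 2, 3 and 4, and 5 and 6, and only experiments 2 and 3 gave scribRES libraries. Biological replicates were counted by experiment in the source publication, so libraries of the same population and experiment are not separate biological replicates. Counts of n are of libraries, and p-values over them measure a spread that is partly technical.

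Entry into mitosis is driven by cyclin-dependent kinase 1 bound to a B-type cyclin. Wee1 holds this kinase inactive by phosphorylating it, and Plk1 helps to release the hold and later acts at centrosomes, kinetochores and the cleavage furrow. Exit requires the anaphase-promoting complex, which Cdc20 activates to destroy cyclin B and securin (Pttg1), and phosphatases such as those of the Cdc14 family act on substrates of the mitotic kinases. Transcripts of many of these genes are made mainly in late cell cycle phases. In RNA from whole cultures, fewer cells in those phases and less RNA per cell cannot be told apart.

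Totals per run ran from 12612666 to 29002711 reads, the 2 runs of control replicate 2 held 54644214 together, and experiment 1 was the most deeply sequenced. The 6 genes were read by between 126 reads (Cdc14a, scribRES replicate 4) and 12118 reads (Cdc20, control replicate 2, both of its runs together) per library, and Cdc14a had the fewest reads, hence the largest counting error, in every library. Scrib, the target of the hairpin, was at 28.9 ± 3.65 RPKM in control (SD, n = 6), 12.9 ± 2.69 in scribKD (SD, n = 6) and 13.3 ± 1.23 in scribRES cells (SD, n = 4). RPKM is the number of reads per transcript length and library size, so levels of different genes can be compared. Of 19 epithelial marker symbols 9 had a named transcript, Muc1 by 2 of them; Krt19 was at 697 to 1710 RPKM and Ocln at 29.6 to 39.1, while the kidney cadherin Cdh16 was near 0, at 0.0286 to 6.55 RPKM. Of 17 symbols for other cell types 2 had a named transcript, Vim at 1380 to 4180 RPKM, which many cultured epithelial lines express, and Des at 0.0967 to 2.34 RPKM. Both summed marker levels moved with the population, from 1680 to 2510 RPKM in control to 1120 to 1610 in scribKD and 1320 to 1980 in scribRES cells for the epithelial list, and from 3320 to 4190 RPKM to 1380 to 1660 and 1590 to 2090 for the other list, nearly all of it Vim. The largest part of the epithelial sum is Krt19 (median 1150 RPKM), and Krt7 was low, at 2.13 to 3.62 RPKM. Single epithelial markers went different ways in scribKD over control. The log2 fold change was -0.57 for Krt19, -0.56 for Muc1 (NM_001194977.1) and -0.73 for Pax8. It was 0.72 for Dsp, 0.03 for Ocln and -0.12 for Cldn1. The part of these marker levels in the results that follow was not tested.

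Across the control cultures the most abundant of the 6 transcripts were Cdc20 (134 ± 15.6 RPKM, SD, n = 6) and Pttg1 (126 ± 8.69), which lie within each other's spread. Plk1 (50.3 ± 5.65), Ccnb2 (41.5 ± 4.19) and Wee1 (38.5 ± 9.19) followed, again within reach of their neighbours' spread, and Cdc14a (9.27 ± 1.96) was the least abundant.

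Knockdown of scribble was accompanied by lower RNA of 5 of the 6 genes and higher RNA of Wee1. Comparing scribKD with control cells asks which transcripts differ after the hairpin is induced. All 6 genes were called in this comparison, 5 lower and 1 higher, where a call needs an adjusted p below 0.05 together with a log2 fold change beyond 0.5 in either direction. Of 9691 transcripts tested, 9.52% were called, 5.27% lower and 4.25% higher. The names come from a list that the study drew from these same libraries for this same contrast, so these calls are not independent evidence of the direction. Ccnb2, Plk1 and Cdc14a passed the filter on low and scattered values only through control cells, where they were higher. In scribKD cells the highest Ccnb2 value was 2.06 times the lowest and the highest Plk1 value 2.19 times, over the limit of 2, and the lowest Cdc14a value was 4.64 RPKM, under the limit of 5.

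**Figure D1:**
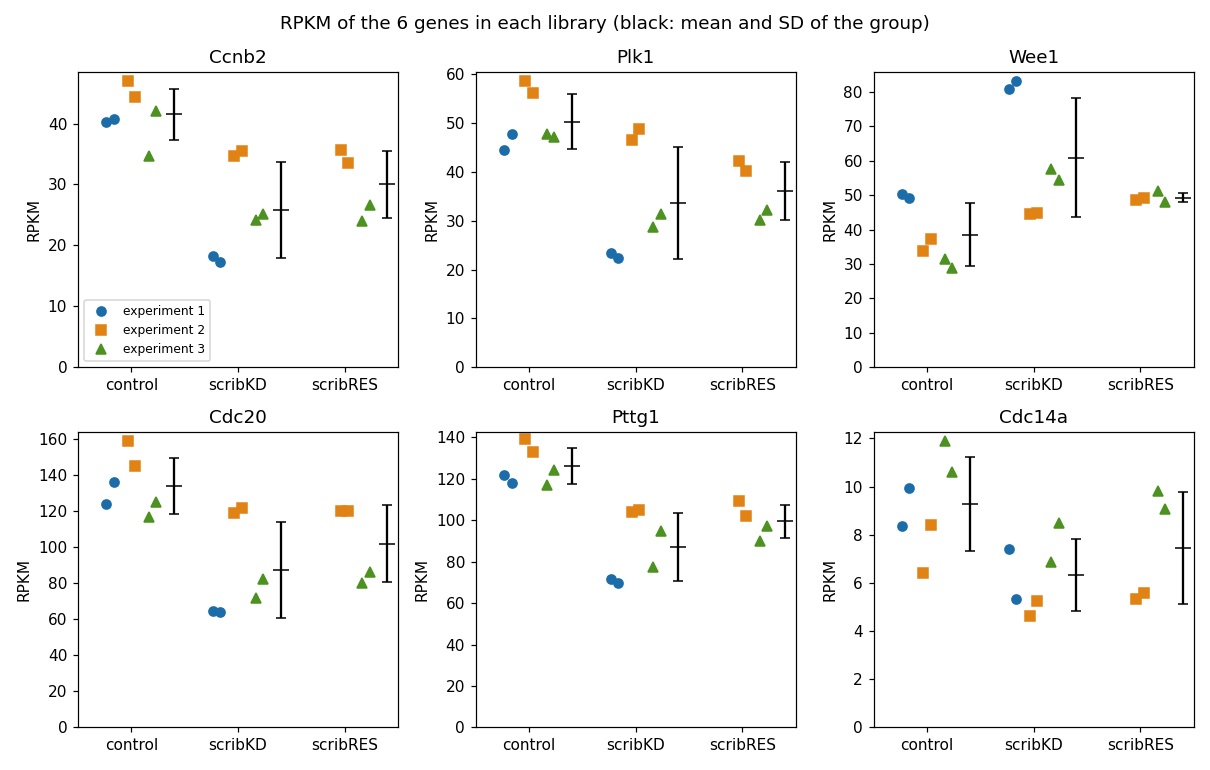
RPKM (y axis, from 0) of each gene in each of the 16 libraries, by population (x axis) and experiment (colour and shape), with the mean and SD of each population in black. Within every experiment both scribKD values of Ccnb2, Plk1, Cdc20, Pttg1 and Cdc14a sit below both control values, and both Wee1 values sit above them.

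Among the genes that drive entry, Ccnb2 encodes cyclin B2, a partner of cyclin-dependent kinase 1. Its RPKM in control replicates 1 to 6 was 40.2, 40.8, 47.0, 44.3, 34.7 and 42.1. In scribKD replicates 1 to 6 it was 18.2, 17.2, 34.6, 35.5, 24.1 and 25.1. The values of experiment 2 were the highest of the scribKD cells, and 1 of them exceeded the lowest control value, so the groups overlapped, although every scribKD library lay below the control library of the same number. The log2 fold change was -0.73 (SE 0.17, limma adjusted p = 0.0072).

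Plk1, the polo-like kinase, read 44.6, 47.7, 58.7, 56.1, 47.7 and 47.2 RPKM in control replicates 1 to 6. In scribKD cells it read 23.4, 22.3, 46.5, 48.9, 28.8 and 31.3 RPKM. Here too the 2 scribKD libraries of experiment 2 lay among the control values and the other 4 lay below all of them. Its log2 fold change was -0.64 (SE 0.18, limma adjusted p = 0.022). The call was lost without scribKD replicate 1 (-0.55, adjusted p = 0.051) and without scribKD replicate 2 (-0.54, adjusted p = 0.05).

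Wee1, the kinase that restrains entry, moved the other way. Its RPKM was 50.4, 49.2, 33.8, 37.3, 31.3 and 28.9 in control replicates 1 to 6. In scribKD cells it was 80.9, 83.1, 44.6, 44.8, 57.6 and 54.3. The control libraries of experiment 1 were higher than the scribKD libraries of experiment 2, so the groups overlapped when the experiments were pooled, yet all 6 scribKD libraries exceeded the control library of the same number. The log2 fold change was 0.65 (SE 0.19, limma adjusted p = 0.024). The call was lost when any of control replicates 3, 5 and 6 or scribKD replicates 1 and 2 was left out, with log2 fold changes of 0.55 to 0.62 and adjusted p from 0.05 to 0.056.

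Of the genes that act at exit, Cdc20 encodes the activator that the anaphase-promoting complex uses in metaphase. Its RPKM in control replicates 1 to 6 was 124, 136, 159, 145, 117 and 125. In scribKD cells it was 64.5, 64.3, 119, 122, 72.0 and 82.4. The scribKD libraries of experiment 2 were again the highest of their group and lay within the control range. The log2 fold change was -0.66 (SE 0.17, limma adjusted p = 0.011).

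Pttg1 encodes securin, which holds separase inactive until anaphase. It read 122, 118, 139, 133, 117 and 124 RPKM in control replicates 1 to 6. In scribKD cells it read 71.4, 69.5, 104, 105, 77.5 and 94.7 RPKM. It was the 1 gene of the 6 whose groups did not overlap at all, which held for 11.9% of the transcripts tested. The log2 fold change was -0.55 (SE 0.11, limma adjusted p = 0.0037), and it fell to -0.49, under the fold threshold, without scribKD replicate 1 or without scribKD replicate 2 (adjusted p = 0.0096 in both).

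Cdc14a encodes a phosphatase of the Cdc14 family, which in yeast reverses phosphorylation by the mitotic cyclin-dependent kinase at exit. Its RPKM was 8.35, 9.94, 6.40, 8.42, 11.9 and 10.6 in control replicates 1 to 6. In scribKD cells it was 7.39, 5.35, 4.64, 5.24, 6.88 and 8.5. These groups overlapped, and the pairs within each experiment did not. The log2 fold change was -0.55 (SE 0.17, limma adjusted p = 0.034). The call was lost without any 1 of control replicates 2, 5 and 6 or scribKD replicates 2, 3 and 4, with log2 fold changes of -0.52 to -0.47 and adjusted p from 0.063 to 0.075.

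Leaving out scribKD replicate 1 left 3 of the 6 genes called, beside 831 of 9812 transcripts tested. Leaving out scribKD replicate 2 left 2, beside 827 of 9739. With the experiment as a block the SEs ran from 0.07 (Pttg1) to 0.11 (Ccnb2) and all 6 genes stayed called, with adjusted p between 1.7e-05 (Wee1) and 0.00042 (Cdc14a), among 10.5% of the transcripts tested. With the experiments as the units, 1 mean per population in each, none of the 6 passed, with adjusted p from 0.15 (Pttg1) to 0.26 (Cdc14a) at the same fold changes, where 2.05% of transcripts were called. With experiments 2 and 3 alone Wee1 stayed called, at a log2 fold change of 0.61 (adjusted p = 0.012), and the other 5 did not, where 8.56% of transcripts were called. With the experiment as a block in that fit Ccnb2 (-0.51, adjusted p = 0.00077), Wee1 (0.61, adjusted p = 0.0014) and Cdc14a (-0.56, adjusted p = 0.0028) were called, among 12.0% of transcripts, and the other 3 missed the fold threshold. In all 3 experiments all 6 genes separated the 2 populations in the same direction, which held for 35.1% of the transcripts tested.

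Most of the other named mitosis genes that were tested were also lower in scribKD cells. Lists of genes for mitotic kinases and cyclins, brakes, exit, the spindle checkpoint, chromatid separation, kinetochores, spindle and cell cycle transcription held 162 symbols, of which 43 transcripts carried a name in the sources used here. Of the 32 tested in scribKD over control, 21 were called lower and 2 higher, Wee1 and the kinase inhibitor Cdkn1a, and the median log2 fold change was -0.61, against 0.02 over all transcripts tested. Leaving out the 6 genes, 16 of 26 were called lower and 1 higher. All but 1 of the 32 names come from the study's own list for this contrast, so genes that did not change are under-represented among them. In experiments 2 and 3 alone 6 of 34 were called lower (4.27% of all transcripts tested), 14 of 34 with the experiment as a block (6.07%), and 3 of 32 with experiment means (1.08%).

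**Figure D2:**
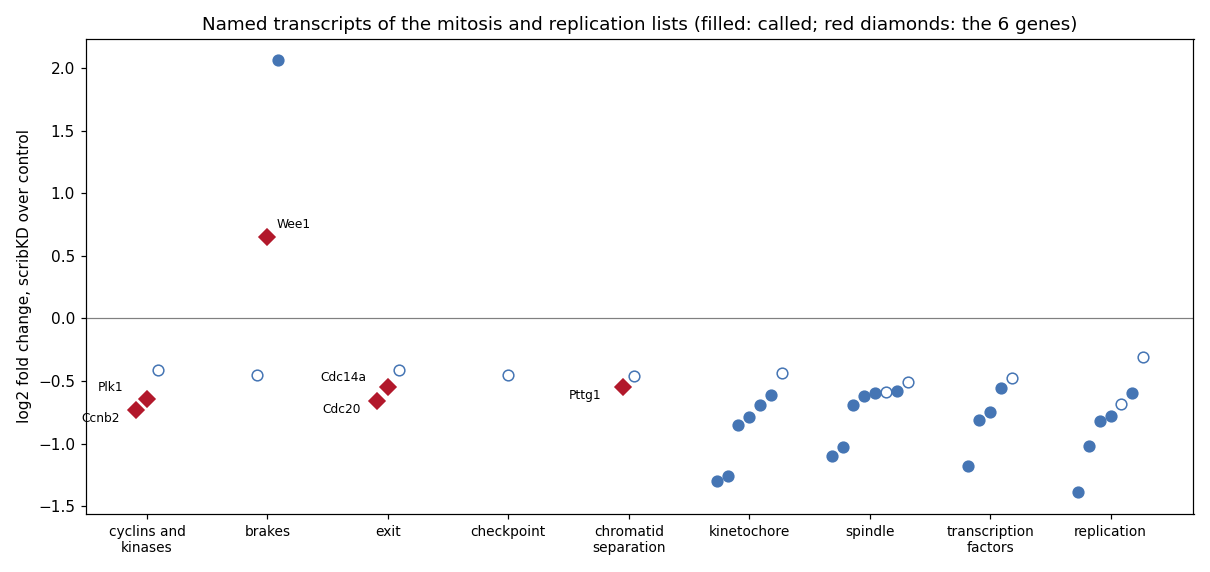
Log2 fold change of scribKD over control (y axis) for the named transcripts of each mitosis list and of a replication list (x axis), with 1 symbol per transcript, filled where called, and the 6 genes as red diamonds. Of 39 symbols, the 2 above 0 are Wee1 at 0.65 and Cdkn1a at 2.06.

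In the kinetochore list, 6 of 7 tested were called lower, led by Hjurp, the chaperone that deposits the centromeric histone, at a log2 fold change of -1.30 (SE 0.14, adjusted p = 2.3e-05) and Cenpf at -1.26 (SE 0.13, adjusted p = 2.3e-05). In the spindle list 6 of 8 were called lower, led by the spindle pole gene Aspm at -1.10 and the kinesin Kif18b at -1.03. Among cell cycle transcription factors 4 of 5 were called lower, led by the repressor E2f7 at -1.18 and by E2f4 at -0.81. Kif18b and E2f7 were tested in both comparisons with control but not in scribRES over scribKD. They thus passed the filter only through control cells, where they were higher, so the filter favoured a fall. Aspm was also tested in scribRES over scribKD. Its lowest value over all libraries was 3.94 RPKM, under the limit of 5, so it may have entered scribKD over control in the same way. The condensin subunit Ncapd2 (-0.46) and the checkpoint gene Mad1l1 (-0.45) had adjusted p of 0.013 and 0.025 and missed the fold threshold. The brake list was the exception, with Wee1 and Cdkn1a called higher and Gadd45a, named after its value was seen as the 1 other member tested, at -0.45 (adjusted p = 0.16). Cdkn1a, which encodes the inhibitor p21, has 2 named transcripts. XM_532125.3, the one tested here and given as Cdkn1a unless stated, rose from 143 ± 32.3 RPKM in control (SD, n = 6) to 593 ± 122 in scribKD cells (SD, n = 6). The other, XM_003639190.1, was more abundant, at 1240 to 2630 RPKM in control and 809 to 2190 in scribKD cells, which overlapped, and was too scattered between libraries to be tested in this comparison. Of the genes of DNA replication 5 of 7 tested were called lower, beside 5.27% of all transcripts tested, with a median log2 fold change of -0.78. For 6 of these 7 the name comes from the study's list for this contrast, and the 1 other, Tyms, was not called.

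The size of the change depended on the experiment for 4 of the 6 genes. An F test compared the log2 fold change of scribKD over control between experiments 1, 2 and 3, with a separate mean for each population in each experiment. It passed for Plk1 (adjusted p = 0.0046), Ccnb2 (adjusted p = 0.0073), Cdc20 (adjusted p = 0.009) and Wee1 (adjusted p = 0.011). Over 10706 transcripts, 13.3% passed this test. It did not pass for Pttg1 (adjusted p = 0.076) or Cdc14a (adjusted p = 0.99).

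Within experiments 1, 2 and 3 the log2 fold changes of Ccnb2 were -1.19, -0.38 and -0.63, each with an SE of 0.09. For Plk1 these were -1.01, -0.27 and -0.66 (SE 0.07). Cdc20 gave -1.01, -0.33 and -0.65 (SE 0.08). The falls of these 3 genes were thus ordered alike, deepest in experiment 1 and shallowest in experiment 2. The step from experiment 1 to 2 passed for each, at 0.81 for Ccnb2 (adjusted p = 0.0098), 0.74 for Plk1 (adjusted p = 0.0049) and 0.68 for Cdc20 (adjusted p = 0.01). Between experiments 2 and 3 it passed for Plk1 alone of the 3, at -0.39 (adjusted p = 0.027), with -0.25 for Ccnb2 (adjusted p = 0.21) and -0.32 for Cdc20 (adjusted p = 0.08).

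Wee1 gave 0.72, 0.33 and 0.89 in experiments 1, 2 and 3 (SE 0.07). Its smallest change was also in experiment 2, and its largest was in experiment 3, 0.56 above that of experiment 2 (adjusted p = 0.0068). Experiments 1 and 3 differed by 0.17 for Wee1 (95% interval -0.03 to 0.38, adjusted p = 0.27). Pttg1 gave -0.77, -0.38 and -0.49 (SE 0.08), in the same order as Ccnb2, Plk1 and Cdc20, though its F test did not pass. Cdc14a gave nearly the same value in each, -0.53, -0.56 and -0.55, with an SE of 0.17 that leaves the difference between experiments 1 and 2 open from -0.56 to 0.48. The median library total was largest for experiment 1 (25652759 reads over its runs), followed by experiment 3 with 20988434.5 and experiment 2 with 16368551. This order follows the size of the estimated fall in Ccnb2, Plk1, Cdc20 and Pttg1. The part of depth, and of anything else that differed between experiments, was not tested.

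**Figure D3:**
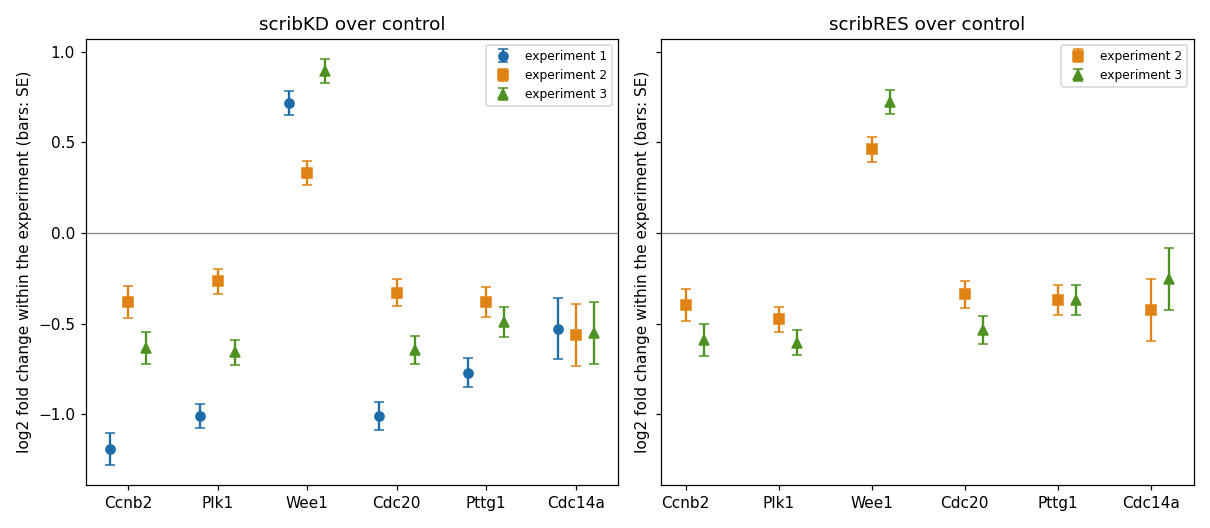
Log2 fold change within each experiment (y axis) for scribKD over control (left) and scribRES over control (right), with 1 symbol per gene and experiment and bars of 1 SE. Ccnb2, Plk1 and Cdc20 are lowest in experiment 1 and closest to 0 in experiment 2 on the left, and Cdc14a stays near -0.55 in all 3.

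The scribRES cells were compared with scribKD cells, which received the same tetracycline, to ask which transcripts differ in the isolate. None of the 6 genes was called by limma in this comparison, and none had an unadjusted p under 0.05 (the lowest was 0.15, for Pttg1). Of 10342 transcripts tested, 1.46% were called. Over all libraries the log2 fold changes were 0.25 for Ccnb2, 0.16 for Plk1, 0.24 for Cdc20, 0.21 for Pttg1, 0.21 for Cdc14a and -0.26 for Wee1, each in the direction of the control level. Ccnb2, Plk1 and Cdc14a passed the filter here only through scribRES cells, the group where these estimates are higher. The scribKD group, however, holds experiment 1, and scribRES does not. In experiment 1 the estimated falls from control of Ccnb2, Plk1, Cdc20 and Pttg1 were the largest. Wee1 changed most in experiment 3, and Cdc14a changed about equally in each.

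With the experiment as a block, most of these differences shrank to near 0. The share of transcripts called rose to 7.32% in that fit, and still none of the 6 was called. Ccnb2 gave 0.01 (95% interval -0.11 to 0.13) and Cdc20 0.05 (95% interval -0.08 to 0.18). Pttg1 gave 0.07 (95% interval -0.09 to 0.22). Plk1 turned from 0.16 to -0.08 (95% interval -0.23 to 0.07), and Wee1 gave -0.02 (95% interval -0.17 to 0.13). Cdc14a kept its value, at 0.22 (95% interval -0.04 to 0.48, adjusted p = 0.15). A p that misses the threshold does not show that the populations were alike. These blocked intervals leave out differences as large as 0.5 in log2 for all 6 genes, but they take libraries as the units. With experiment means as the units and no block, the 95% intervals reached beyond 0.5 in size for all 6 genes. They ran from -0.41 to 0.92 for Ccnb2 and from -0.25 to 0.67 for Pttg1. Differences of that size are thus not excluded between experiments taken as biological replicates.

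**Figure D4:**
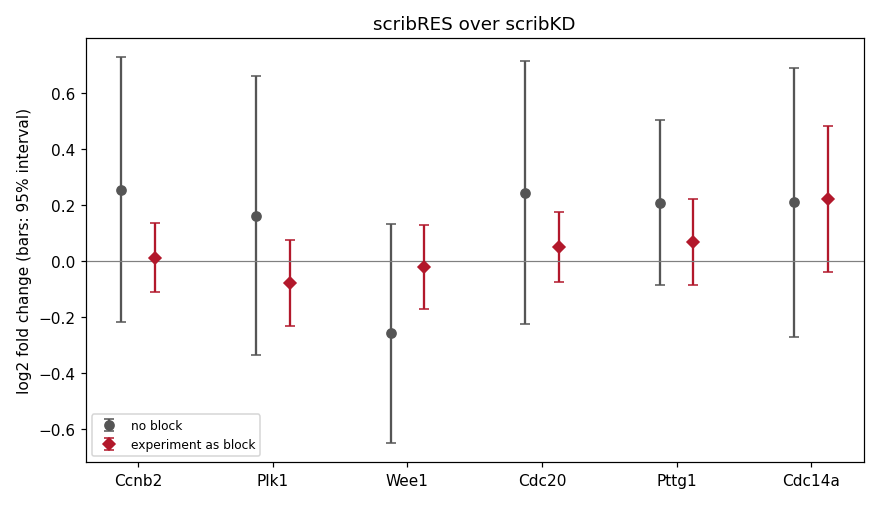
Log2 fold change of scribRES over scribKD (y axis) for each gene, with 95% intervals, without a block over all 10 libraries (grey circles) and with the experiment as a block (red diamonds). The blocked values lie between -0.08 for Plk1 and 0.22 for Cdc14a, and every interval includes 0.

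The single libraries can be set side by side within experiments. Ccnb2 in scribRES replicates 3 to 6 read 35.7, 33.6, 24.0 and 26.7 RPKM, beside 34.6, 35.5, 24.1 and 25.1 in the scribKD libraries of the same numbers. Cdc20 read 120, 120, 80.3 and 86.1 RPKM, beside 119, 122, 72.0 and 82.4 in scribKD cells. Pttg1 read 109, 102, 89.9 and 97.0 RPKM, beside 104, 105, 77.5 and 94.7. For these 3 genes the scribRES and scribKD values of an experiment overlapped, and both populations shifted together between experiments 2 and 3.

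Plk1 in scribRES replicates 3 to 6 read 42.3, 40.2, 30.1 and 32.2 RPKM, so in experiment 2 both values lay below the scribKD values of 46.5 and 48.9, and in experiment 3 they overlapped them. Wee1 read 48.7, 49.1, 51.2 and 48.1 RPKM, above scribKD in experiment 2 and below it in experiment 3. Cdc14a read 5.32, 5.58, 9.82 and 9.08 RPKM, above scribKD in both experiments. It was the 1 gene of the 6 to separate the populations in the same direction in both, which held for 41.8% of the transcripts tested.

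The difference between scribRES and scribKD cells itself depended on the experiment for Wee1. It was 0.13 in experiment 2 and -0.17 in experiment 3, a change of -0.30 (SE 0.09, adjusted p = 0.034). For Plk1 it was -0.21 and 0.05, a change of 0.26 that missed the threshold (adjusted p = 0.061). Of all transcripts tested for such a change, 26.8% passed, and the other 4 genes did not, with adjusted p from 0.43 to 0.76.

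The Cdkn1a transcript XM_532125.3 was called in this comparison, being at 212 ± 20.4 RPKM in scribRES cells (SD, n = 4), with a log2 fold change over scribKD of -1.46 (SE 0.15, adjusted p = 0.00089). Its other transcript, XM_003639190.1, gave 0.19 (adjusted p = 0.75) and, with the experiment as a block, 0.46 (adjusted p = 0.23). Of the 35 named mitosis transcripts tested, XM_532125.3 was the 1 called lower and none was called higher, beside 0.899% and 0.561% of all transcripts tested. With the experiment as a block 4 were called higher and 3 lower, beside 4.4% and 2.92% of all transcripts, and the median over the lists was 0.12, against -0.02 over all transcripts tested. Of these calls, 2 of the higher and 2 of the lower are in the brake list. For 32 of the 35 the name comes from the study's list for scribKD against control, drawn with these same scribKD libraries, so the median is shaped by that selection. Hjurp had 0.66 (adjusted p = 0.05, not called) without the block and 0.46 with it (adjusted p = 0.0024), and Cenpf 0.76 (adjusted p = 0.091) without and 0.72 with it (adjusted p = 0.0034), so Cenpf was called in the blocked fit.

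Against control cells, the estimates for all 6 genes in scribRES cells lay on the same side as those in scribKD cells. Both comparisons share the control libraries, so the 2 sets of values are not independent. The log2 fold changes were -0.48 for Ccnb2 (adjusted p = 0.028), -0.48 for Plk1 (adjusted p = 0.023), -0.42 for Cdc20 (adjusted p = 0.063), -0.34 for Pttg1 (adjusted p = 0.02), -0.34 for Cdc14a (adjusted p = 0.3) and 0.39 for Wee1 (adjusted p = 0.11). None was called, because the fold or the p missed its threshold, where 7.89% of 10324 transcripts were. Leaving out 1 library brought some past the threshold, Ccnb2 without control replicate 5 (-0.53) or scribRES replicate 3 (-0.57) or 4 (-0.54), and Plk1 without control replicate 1 (-0.51) or scribRES replicate 3 (-0.56) or 4 (-0.54). Of all transcripts tested, 1026 of 10365 were called without control replicate 5 and 730 of 10348 without control replicate 1. Without scribRES replicate 3 it was 478 of 10402, and without scribRES replicate 4 it was 474 of 10445. With the experiment as a block, Plk1 at -0.54 (SE 0.06, adjusted p = 0.00023) and Wee1 at 0.59 (SE 0.07, adjusted p = 0.00044) were called, as were 14.7% of the transcripts tested. The other 4 then had adjusted p from 0.001 (Pttg1) to 0.031 (Cdc14a), with log2 fold changes of -0.49 to -0.34 that stayed under the fold threshold.

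In both experiments the scribRES and control values did not overlap for any of the 6 genes, in the same direction each time, which held for 43.7% of the transcripts tested. Over all libraries Plk1 and Pttg1 did not overlap, as did 16.8% of transcripts. The difference between scribRES and control cells changed between experiments for Wee1, from 0.46 to 0.72 (difference 0.26, SE 0.09, adjusted p = 0.048), where 36.2% of transcripts passed. Of 38 named mitosis transcripts tested, 5 were called lower and 1, Cdkn1a by XM_532125.3, higher, beside 3.65% of all transcripts tested called lower and 4.24% higher. Their median log2 fold change was -0.40, against 0.02 over all transcripts tested. For 35 of the 38 the name comes from the study's list for scribKD against control. That list was drawn with these same control libraries, so the median is shaped by that selection. Without control replicate 2 or 3, or scribRES replicate 5 or 6, 3 were called lower. Of all transcripts tested, 419 of 10354, 287 of 10344, 362 of 10434 and 313 of 10386 were called lower in these fits, in that order. Without control replicate 5 or 6 the count of mitosis transcripts called lower was 7, beside 486 of 10365 and 448 of 10349. Without scribRES replicate 4 it was 6, beside 240 of 10445, and leaving out any 1 library gave 3 to 7. With the block 12 were called lower and 2 higher, Cdkn1a and Wee1, beside 5.89% and 8.77%.

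Because Wee1 and Ccnb2 act in opposite senses on the same kinase, the ratio of their RPKM was computed in each library. It ran from 0.688 to 1.25 in control cells (median 0.873), from 1.26 to 4.83 in scribKD cells (median 2.28) and from 1.37 to 2.14 in scribRES cells (median 1.63). No scribKD or scribRES library fell into the control range, although the gap was narrow, between 1.25 in control replicate 1 and 1.26 in scribKD replicate 4. Within scribKD cells the ratio was highest in replicates 1 and 2 (4.45 and 4.83) and lowest in replicates 3 and 4 (1.29 and 1.26), while replicates 5 and 6 gave 2.39 and 2.16. The ratio of Wee1 to Plk1 did not separate the groups in this way. It ran from 0.575 to 1.13 in control, from 0.917 to 3.72 in scribKD and from 1.15 to 1.7 in scribRES cells, and scribKD replicates 3 and 4, at 0.957 and 0.917, fell into the control range. These ratios were formed after the genes were known to differ and are a description with no test. Dividing a gene listed as higher by one listed as lower tends to set the groups apart, and no share over other ratios was computed. Among single transcripts, 11.9% of those tested did not overlap in scribKD over control and 16.8% in scribRES over control.

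**Figure D5:**
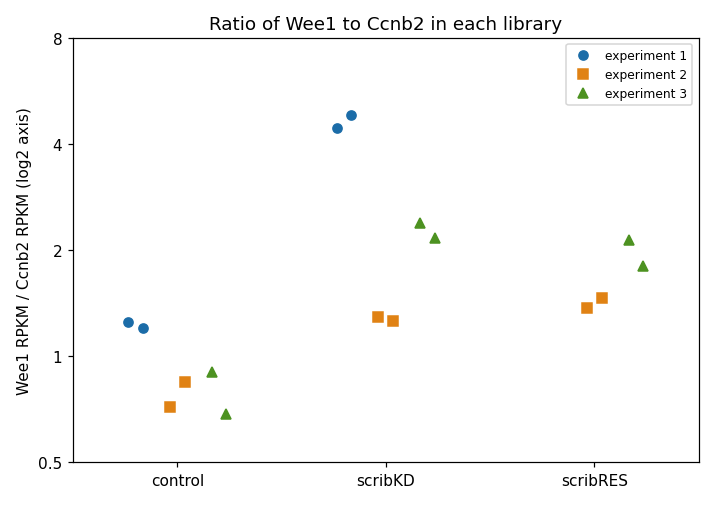
Ratio of Wee1 RPKM to Ccnb2 RPKM (y axis, log2 scale) in each of the 16 libraries, by population (x axis) and experiment (colour and shape). All control values lie at or below 1.25, and the scribKD values of experiment 1 are the highest, at 4.45 and 4.83.

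Some of the 6 genes also differed between experiments within the populations. Experiments 2 and 3 hold all 3 populations, and a fit with the population as covariate compared them. It asks how far each gene moved on average over the populations. Cdc20 was lower in experiment 3 by a log2 fold change of -0.50 (SE 0.06, adjusted p = 4e-05), Plk1 by -0.45 (SE 0.06, adjusted p = 0.00013) and Ccnb2 by -0.41 (SE 0.06, adjusted p = 0.00024). Cdc14a was higher, at 0.67 (SE 0.09, adjusted p = 5.5e-05). Pttg1 had -0.21 (adjusted p = 0.0062) and Wee1 0.04 (95% interval -0.14 to 0.21, adjusted p = 0.72). For Wee1 this average joins opposite shifts from experiment 2 to experiment 3. Its mean went from 35.5 to 30.1 RPKM in control, from 44.7 to 55.9 in scribKD and from 48.9 to 49.7 in scribRES cells. Cdc20 and Cdc14a were called, among 17.9% of 10155 transcripts. The call of Cdc20 was lost with a pseudocount of 1 (-0.50, just under the fold threshold) and when any of scribKD replicates 3 to 5 or scribRES replicates 3 to 5 was left out, with log2 fold changes of -0.50 to -0.46. Of 35 named mitosis transcripts 14 were called lower in experiment 3 and 5 higher, 4 of these 5 in the brake list, beside 7.96% and 9.97% of all transcripts tested.

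Over the 16 libraries, Ccnb2, Plk1, Cdc20 and Pttg1 followed one another closely, with Pearson's r of log2(RPKM + 0.1) between 0.95 and 0.98. Wee1 ran against them, with r from -0.86 to -0.79. Cdc14a had r of 0.03 to 0.26 with the 4, and 0.74 to 0.81 after the mean of each experiment was subtracted. These correlations describe libraries that share populations and experiments.

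By the same measure, over 10706 transcripts, the named transcripts most like Ccnb2 were Cdc20, Plk1 and Pttg1, and those most like Plk1 were Cdc20, Ccnb2 and Mtfr2 (r = 0.96). Cdc20 was followed most closely by Plk1, Ccnb2 and the centromeric histone gene Cenpa (r = 0.98), and Pttg1 by Ccnb2, the kinetochore and spindle gene Knstrn (r = 0.96) and Plk1. Most like Wee1 were the phosphate transporter gene Slc20a1 (r = 0.96), the phosphatase gene Dusp4 (r = 0.95) and the glucocorticoid receptor gene Nr3c1 (r = 0.94). Most like Cdc14a were Tmem37 (r = 0.92), the epithelial transcription factor gene Elf3 (r = 0.92) and Chpt1 (r = 0.91). Only 9.17% of transcripts had a name, most of them from the study's list, and up to 6 other transcripts, named or not, ranked ahead of a named one given here.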

How the data were processed

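RNA from 16 libraries was sequenced in 17 runs. Per the methods and the submitters' processing notes, the authors trimmed reads (cutadapt 1.0), mapped them with TopHat2 2.0.6 to the dog genome CanFam3.1 with transcripts placed by BLAT as junctions, counted reads over transcripts and deposited RPKM, 1 table of 21571 transcripts per run. The authors tested read counts with edgeR. RPKM values are not counts, so they were tested here on a log2 scale. How reads matching several transcripts were handled is not given in the sources used here.

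The 2 runs of control replicate 2 differed by about sampling noise (chi-square per transcript 1.12, against 25.3 between control replicates 1 and 2), were averaged and counted once. Whole reads were recovered from the deposited RPKM for 18873 transcripts, 2698 being 0 throughout, with 100% of values above 0 whole within 0.05 reads. A count of 3 reads on a 2 kb transcript is worth 0.0517 to 0.119 RPKM.

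Each pair of populations was fitted with limma 3.58.1 (eBayes with trend) in R 4.3.3 on log2(RPKM + 0.1), two-sided, adjusted by Benjamini-Hochberg over all transcripts tested. Fold changes are on this scale, which understates those of low transcripts. Tests were limited to transcripts for which 1 of the compared conditions had all its replicates above 5 RPKM and within 2-fold of each other. Differences between experiments were fitted over all 16 libraries, with 1 mean per population and experiment, for transcripts above 5 RPKM in every library of a population. The fits of pairs of populations without a block were tested on simulated data. The simulated libraries were independent and held no effect of the experiment, so this test does not bear on spread shared within an experiment. Other steps used Python 3.11.15, numpy 2.4.6, pandas 2.3.3 and matplotlib 3.10.9.

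The labels name the experiment, and the study's number of biological replicates is that of the experiments, so same-numbered libraries share one. Residuals of 2 populations correlated at a mean r of 0.34 to 0.58 between libraries of the same number, 0.34 to 0.66 between other libraries of the same experiment and -0.31 to -0.17 between experiments. The experiment was therefore used as a block in an alternative fit.

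The 6 genes and the gene lists were chosen with earlier results of these data known. Further genes were named by a rule: from each mitosis list the 2 tested transcripts with the largest change in scribKD over control and any called against most of its list, and for each of the 6 genes the 3 named transcripts with the highest correlation. Hjurp and Cenpf in scribRES follow this rule, and Scrib and Cdkn1a served as checks. Names came from the study's lists (1388 and 183 transcripts) and a RefSeq gene table of assembly UU_Cfam_GSD_1.0 (407). That assembly is not the one mapped to, so no coordinates are given. Sequences and promoter motifs were not analysed here.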

Additional observations from a re-analysis of the deposited data

Results flagged for a closer look

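These 6 results stood out because the change between 2 populations differed between experiments by a test of that difference. For scribKD over control the adjusted p of the F test over experiments 1, 2 and 3 was 0.0046 for Plk1, 0.0073 for Ccnb2, 0.009 for Cdc20 and 0.011 for Wee1. For Wee1 the log2 fold change of scribRES over scribKD changed by -0.30 between experiments 2 and 3, and that of scribRES over control by 0.26. In the 18 groups formed by 6 genes and 3 populations, no library lay far enough from the others to pass Dixon's 95% criterion.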

How the results depend on the processing

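Limits come first from the experiments, with 2 libraries of a population in each and no scribRES library in experiment 1. Scaling by median ratios, pseudocounts of 0.01 and 1, other RPKM minimums, fits without the trend and fits on recovered reads changed no direction of the 6 genes in the comparisons of populations. They ended the scribKD call of Cdc14a at a pseudocount of 1 (-0.49) and without any filter (adjusted p = 0.069). Median-ratio scaling brought Ccnb2 and Plk1 past the fold threshold in scribRES over control, both at -0.51, and ended the pass of Wee1 for a change of scribRES over control between experiments (0.25, adjusted p = 0.059).

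The replicate block by experiment gave 1015 transcripts called for scribKD over control (923 without), 757 for scribRES over scribKD (151 without) and 1513 for scribRES over control (815 without). The block by replicate number gave 404 for scribRES over scribKD. Experiments 2 and 3 alone gave 314 there, and with the block, an alternative chosen after seeing the data, 782, and 1576 for scribRES over control. With experiment means 199 were called for scribKD over control and 0 by limma in both comparisons of scribRES, with 463 (over scribKD) and 1153 (over control) at an unadjusted p under 0.05. Leaving out 1 library gave 827 to 1029, 51 to 227 and 474 to 1026 in the 3 comparisons, and 1614 to 2020 for experiment 3 over experiment 2 (1820 with all). For scribRES over scribKD the count was 227 without scribKD replicate 1, 195 without scribKD replicate 6 and 51 to 80 without any of the other 8 libraries. For scribRES over control it was 478 without scribRES replicate 3 and 474 without scribRES replicate 4. Both blocks changed no other call of the 6 genes than those of Plk1 and Wee1 in scribRES over control.

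Signs turned only near 0. Plk1 in scribRES over scribKD was -0.08 under both blocks and with experiments 2 and 3 alone, with or without the block. Wee1 in experiment 3 over experiment 2 ran from -0.01 to 0.09 when 1 library was left out, with -0.001 without scribKD replicate 3 and -0.01 without scribKD replicate 5. Of the differences between experiments 2 and 3, that of Ccnb2 in scribRES over scribKD was -0.0002 and that of Pttg1 in scribRES over control -0.01 with median-ratio scaling, and that of Cdc14a in scribKD over control -0.01 with a pseudocount of 1. The cause was not tested.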
